A study of Mus musculus with 20 samples.

Results

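STAT2-null mouse embryonic fibroblasts (MEFs) treated with interferon were compared with wild-type MEFs treated with interferon for the level of adenosine-to-inosine RNA editing. The sites compared were those with at least 50 reads in each of the 4 treated libraries, and there were 7105 of them among the 48425 sites that every deposited table lists. Of the listed sites, 10692 had a read in any library of the series. The line of genotype STAT2_NULL with interferon (2 libraries) was set against the line of genotype ADAR1_WT with interferon (2 libraries), here called wild type. Untreated libraries of both lines (2 each) were used to compare the lines without interferon. The other genotypes, each with and without interferon, were ADAR1_NULL, P150_KO and ADAR2_NULL. They entered the estimate of the spread and are given beside a few results. In all, 20 libraries in 10 groups were analysed.

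MEFs are fibroblasts grown out of mouse embryos. ADAR enzymes deaminate adenosine to inosine within double-stranded RNA, and inosine is read as guanosine in cDNA. ADAR1 has a constitutive, mainly nuclear form named p110 and a longer form named p150 that is transcribed from an interferon-inducible promoter. ADAR2, encoded by Adarb1, is the other catalytically active ADAR of mammals. STAT2 is part of the transcription factor complex that type I interferon activates at interferon-stimulated genes. A cell without STAT2 therefore lacks a core part of the type I interferon signal, and the comparison asks how editing after interferon depends on it.

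Each genotype is represented by 1 labelled line, so genotype and any other difference between the lines cannot be told apart. The label of the wild-type line speaks of ADAR1 alone and does not name it a matched control of the STAT2-null line. The kind, dose and duration of interferon are named in no source used here. No label states whether replicate libraries derive from different cultures. The p-values therefore reflect variation among libraries that may be purely technical. The assay reads editing in amplified cDNA and gives no expression levels, so neither the loss of Stat2 nor the fibroblast identity of the cells could be checked. Total coverage over all listed sites was 5398075 and 5278891 reads in the STAT2-null treated libraries, and 5111796 and 4697335 reads in the wild-type treated libraries. The editing level of a site is its edited reads as a percentage of its coverage.

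Of the 7105 covered sites, 1136 had no edited read in the 4 libraries and 4752 more averaged below 1% over them. The remaining 1217 sites, in 202 loci, were tested. These loci comprise 189 named genes and 13 intergenic runs of sites. The last sites left out averaged 0.998 to 0.999% (in Ick, uc007hbj.1 and Cds2), and the first kept averaged 1.0007 to 1.006%.

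Editing was low in the treated STAT2-null libraries and high in the treated wild-type libraries. The mean level over the 1217 tested sites was 2.59% and 2.90% in the STAT2-null libraries, against 13.2% and 15.3% in the wild-type libraries. Group means were 2.74% ± 0.225 in STAT2-null and 14.2% ± 1.47 in wild type (SD, n = 2 each), a difference of -11.5 percentage points (SE 1.05). The groups did not overlap, and wild type stood 5.18 times above STAT2-null. With 2 libraries a group the exact two-sided permutation test gives p = 0.33, the smallest it allows. The size of this mean difference rests on which sites enter it. It was -22.2 points over sites of at least 5% and -1.98 points over all 7105 covered sites.

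Site by site, edgeR's quasi-likelihood test (Benjamini-Hochberg adjusted) over the 1217 sites called 484 sites lower in STAT2-null (39.8%) and 14 sites higher (1.15%), at an adjusted p below 0.05. Together these are 498 sites (40.9%). Without adjustment, 638 sites had a p below 0.05. The STAT2-null libraries both lay below the wild-type libraries at 824 sites (67.7%) and both above at 56 sites (4.6%). The median level of all tested sites was 0.704% in STAT2-null and 6.88% in wild type. The difference was below 0 at 1103 sites and above 0 at 114. The STAT2-null median lies below the 1% limit for testing, so many sites passed that limit only through the wild-type libraries. These medians and counts, the shares of sites without overlap and the means above are therefore set in part by the limit. At the 484 lower sites the median level was 0.412% in STAT2-null and 15.3% in wild type, with differences of -84.7 to -1.51 points, and 83 of these sites had no edited read in either STAT2-null library. The lower sites lay in 108 loci, the higher sites in 9 loci, with 3 loci holding both, and 88 loci held no called site. The number of calls depended on the libraries in the fit. A fit to the 4 treated libraries alone called 311 lower and 9 higher sites. Leaving out STAT2-null library 1 gave 247 lower sites and leaving out STAT2-null library 2 gave 254, with 240 and 246 of the 484 among them.

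**Figure D1:**
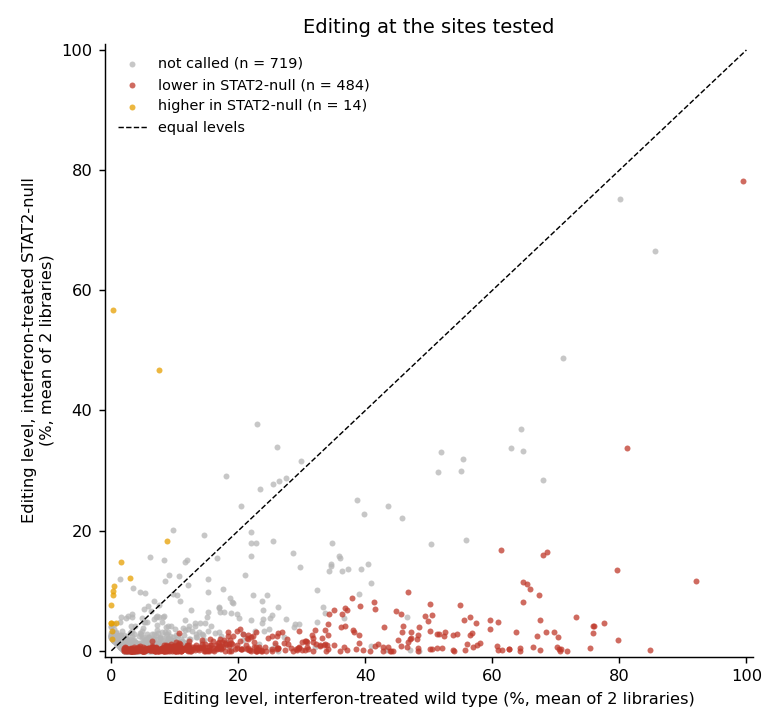
Editing level of each of the 1217 tested sites, as the mean of 2 libraries in percent, in interferon-treated STAT2-null cells (vertical axis) against interferon-treated wild-type cells (horizontal axis). Sites called lower in STAT2-null (484) lie below the dashed line of equal levels, most of them close to the horizontal axis, and the 14 sites called higher lie above it.

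The share of sites called lower grew with the wild-type level. Among 144 sites below 2% in treated wild type, 1 was lower and 11 were higher. The lower share was 20.3% of 345 sites at 2 to 5%, 40.6% of 256 sites at 5 to 10%, and 57.4% of 190 sites at 10 to 20%. It was 65.5% of 200 sites at 20 to 50% and 84.1% of the 82 sites at 50% or more. The wild-type level is part of the difference tested, so this trend describes the calls and is no separate result. In that last class the median STAT2-null level was 3.14%. Levels of 20% or more were seen at 29 sites in STAT2-null and 282 sites in wild type, and 25 of these sites were shared. Levels of 50% or more were seen at 4 sites in STAT2-null and 82 in wild type, with 3 shared.

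The share called lower was also greater at deeper sites. It was 31.8% of 393 sites with under 200 reads in their shallowest library, where the lower sites had a median difference of -22.0 points. It was 54.8% of 115 sites with 2000 reads or more, where the lower sites had a median difference of -6.62 points. Among the named sites, the 95% Wilson interval of a level in 1 treated library was 15.3 points wide at most, with a median of 4.41 points. These intervals cover counting error only, since PCR reads without molecular identifiers are not independent molecules.

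The site with the greatest decrease lay in the 3′ UTR of 2900026A02Rik, a gene known by its clone name, on chromosome 5 at position 113516516 (mm9, minus strand). Its level was 0.312% and 0% in STAT2-null libraries, against 82.9% and 86.8% in wild-type libraries. The difference was -84.7 points (SE 1.99), with an adjusted p of 1.91e-05 in edgeR's quasi-likelihood test (Benjamini-Hochberg adjusted). Both wild-type libraries were edited in most reads and both STAT2-null libraries in almost none. Over the 20 loci with the greatest decreases, taking 1 site each, STAT2-null libraries lay between 0% and 17.1% and wild-type libraries between 36.7% and 96.6%. The choice of these sites required a call and groups that do not overlap, so these ranges describe the size of the differences only. All but 1 of these sites were in 3′ UTRs, and the exception was intergenic.

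Several of these 3′ UTRs belong to genes of membranes and the secretory pathway. In Mmgt1, which encodes a subunit of the endoplasmic reticulum membrane complex, the site at chromosome X position 53840820 had 10.5% and 12.8% in STAT2-null libraries, against 87.6% and 96.6% in wild-type libraries. In Gla, the lysosomal alpha-galactosidase, the site at chromosome X position 131123090 had 4.75% and 4.40% in STAT2-null libraries, against 76.3% and 78.8% in wild-type libraries. In Rragd, a Rag GTPase that acts at the lysosome in amino acid sensing, the site at chromosome 4 position 33107392 had 5.54% and 2.86% in STAT2-null libraries, against 86.1% and 66.1% in wild-type libraries. All 3 sites kept some editing in STAT2-null, and in each the lowest wild-type library was far above the highest STAT2-null library. In Sdf4, a calcium-binding protein of the Golgi lumen, the site at chromosome 4 position 155384775 had 4.97% and 5.21% in STAT2-null libraries, against 72.4% and 62.5% in wild-type libraries.

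Others of the 20 sites lay in genes of the cytoskeleton, adhesion and guidance. In Cdh22, a cadherin, the site at chromosome 2 position 164937353 had 0% and 0.775% in STAT2-null libraries, against 72.0% and 78.6% in wild-type libraries. In Nrp1, a co-receptor for semaphorins and vascular endothelial growth factor, the site at chromosome 8 position 131028073 had 1.42% and 0% in STAT2-null libraries, against 63.6% and 69.1% in wild-type libraries. In Rhoa, the small GTPase that controls actin stress fibres, the site at chromosome 9 position 108239461 had 2.53% and 2.26% in STAT2-null libraries, against 65.3% and 68.7% in wild-type libraries. The wild-type libraries were close to each other at these sites. Rhoa had only this 1 tested site, while all 4 tested sites of Cdh22 and 2 of 3 in Nrp1 were lower.

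Of the 20 sites, 4 lay in genes of DNA repair, nucleic acid binding or the nuclear pore. In Mlh3, a mismatch repair protein, the site at chromosome 12 position 86576054 had 5.06% and 3.08% in STAT2-null libraries, against 83.1% and 68.6% in wild-type libraries. In Mdc1, a scaffold of the DNA damage checkpoint, the site at chromosome 17 position 35995550 had 2.78% and 3.42% in STAT2-null libraries, against 69.3% and 67.7% in wild-type libraries. In Fubp3, a nucleic acid binding protein with KH domains, the site at chromosome 2 position 31471414 had 1.67% and 4.61% in STAT2-null libraries, against 67.6% and 71.7% in wild-type libraries. The STAT2-null libraries were at 5.06% or below at these 3 sites. In Nup155, a nucleoporin, the site at chromosome 15 position 8109489 had 8.22% and 10.5% in STAT2-null libraries, against 65.9% and 68.7% in wild-type libraries.

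Metabolic enzymes were a further part of the 20. In Cds2, which makes CDP-diacylglycerol, the site at chromosome 2 position 132135405 had 1.12% and 0.253% in STAT2-null libraries, against 64.4% and 76.0% in wild-type libraries. In Agphd1, now named Hykk, a hydroxylysine kinase, the site at chromosome 9 position 54795019 had 9.88% and 17.1% in STAT2-null libraries, against 81.0% and 78.1% in wild-type libraries. In Car5b, a mitochondrial carbonic anhydrase, the site at chromosome X position 160415919 had 0.581% and 1.35% in STAT2-null libraries, against 55.0% and 60.2% in wild-type libraries. Agphd1 kept the highest STAT2-null library among the 20 sites. In Coq3, a methyltransferase of coenzyme Q synthesis, the site at chromosome 4 position 21838456 had 3.37% and 2.93% in STAT2-null libraries, against 36.7% and 90.7% in wild-type libraries. The wild-type libraries of Coq3 were far apart, and it was the only one of the 20 that lost its call under any alternative run (adjusted p 0.00502 with all libraries and 0.0578 in a fit to the 4 libraries alone, both by edgeR's quasi-likelihood test). The remaining sites of the 20 were in Dnajc18, a DnaJ co-chaperone, in Slfn5, in Nt5dc3 and in an intergenic run on chromosome 13.

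**Figure D2:**
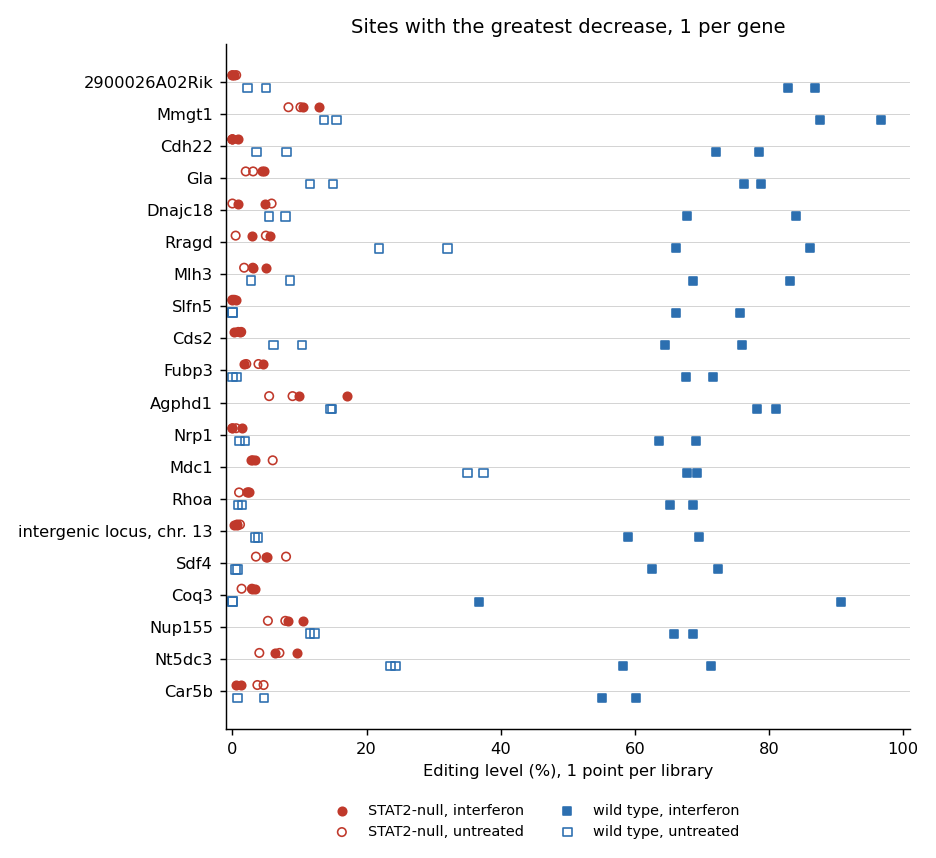
Editing level in percent (horizontal axis), 1 point per library, at the site with the greatest decrease in each of 20 loci, with STAT2-null in red circles and wild type in blue squares, filled for interferon-treated and open for untreated libraries. Filled red points lie between 0% and 17.1% and filled blue points between 36.7% and 96.6%, while most open points of both lines lie near the red ones.

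Slfn5 was lower throughout its cluster of sites. It encodes a Schlafen protein, a family induced by type I interferon. All 15 tested sites, spread over 95 bases of its 3′ UTR on chromosome 11, were lower in STAT2-null. The mean over them was 0.207% and 0.290% in the STAT2-null libraries, against 35.3% and 34.2% in the wild-type libraries. No STAT2-null library exceeded 0.813% at any of these sites, and the wild-type libraries ranged from 2.0% to 75.7%. At position 82776157 the levels were 0% and 0.544% in STAT2-null libraries, against 66.1% and 75.7% in wild-type libraries, a difference of -70.6 points (SE 4.80). Untreated libraries of both lines were at 0.294% or below at that position. Of the 32 genes listed for interferon and innate immunity, only Slfn5 and Ifnar1 had a tested site. Ifnar1, a chain of the type I interferon receptor, had 6 tested sites, of which none was called lower and 1 was called higher. The mean over its 6 sites was 0.826% and 1.51% in the STAT2-null libraries, against 3.79% and 3.32% in the wild-type libraries.

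Sites lie in clusters, and most of the larger clusters held lower sites, but few were lower throughout. At least 8 tested sites each lay in 50 loci, with 775 sites and 361 lower sites in all, and 47 of the 50 had a lower site. In 20 of them more than 50% of the sites were lower. All sites were lower in 3 loci, which were Slfn5, Iqgap1 with 18 of 18 and Rragd with 9 of 9. Iqgap1, a scaffold protein of the actin cytoskeleton, averaged 0.373% and 0.315% over its 18 sites in STAT2-null libraries, against 7.85% and 6.96% in wild-type libraries. Its wild-type levels were modest, and every site had at least 1361 reads in each treated library. Rragd averaged 0.965% and 0.694% over its 9 sites in STAT2-null libraries, against 43.7% and 39.0% in wild-type libraries.

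Other clusters were lower in part of their sites. Gnl3l, a nucleolar GTPase, had 19 lower sites of 21, and Gla had 18 of 25. 2900026A02Rik had 18 of 32, Slc35e2, a solute carrier gene, had 19 of 29, and Bri3bp had 15 of 33. The mean over the 21 sites of Gnl3l was 2.14% and 2.37% in STAT2-null libraries, against 22.4% and 22.6% in wild-type libraries. Gla averaged 1.74% in both STAT2-null libraries, against 27.7% and 27.4% in wild-type libraries. Ncl, encoding nucleolin, had 8 lower sites of 33, and Fbxl17, an F-box gene, had 3 of 31. The means of Fbxl17 were 1.11% and 3.59% in STAT2-null libraries, against 9.77% and 6.82% in wild-type libraries. At the other end, 2 of the 50 loci had no call, uc012aji.1 with 16 sites and 9930104L06Rik with 12, and C330018D20Rik had 4 higher sites of 8 and none lower.

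**Figure D3:**
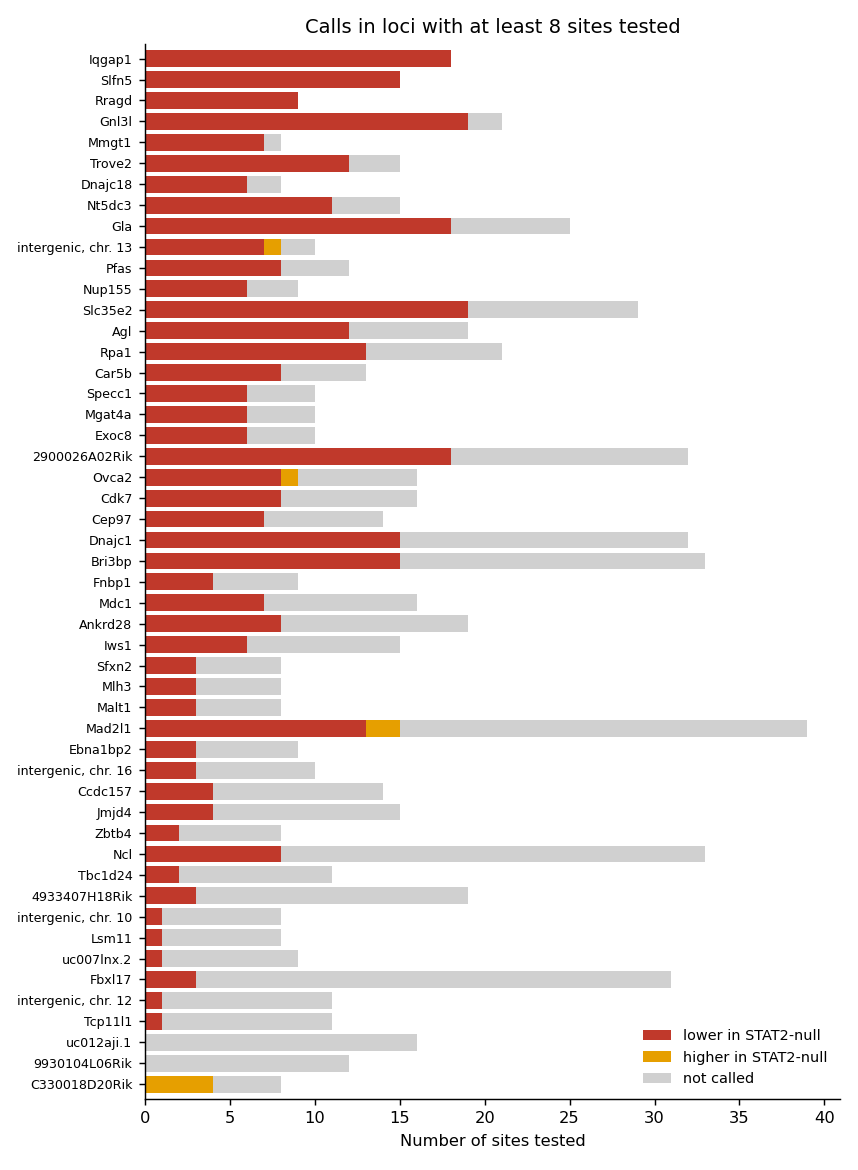
Number of tested sites (horizontal axis) in each of the 50 loci with at least 8 of them, ordered by the share called lower in STAT2-null (red), with sites called higher in orange and uncalled sites in grey. Iqgap1, Slfn5 and Rragd are red throughout, and uc012aji.1, 9930104L06Rik and C330018D20Rik hold no red.

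Neighbouring sites often carried different calls. Of 653 pairs of adjacent tested sites at most 10 bases apart, both were lower in 198 pairs, 1 of the pair was lower in 204 and neither in 251. The median difference between the effects of such neighbours was 7.2 points. Pairs share reads and a duplex, so these counts describe the clusters and carry no test.

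Mad2l1, which encodes a spindle assembly checkpoint protein, held the most tested sites, 39 in its 3′ UTR over 786 bases of chromosome 6. Of these, 13 were lower, 2 were higher and the others were not called. The mean over the 39 sites was 7.69% and 8.18% in STAT2-null libraries, against 12.3% and 17.1% in wild-type libraries. The site at position 66490132 had 6.21% and 5.93% in STAT2-null libraries, against 37.0% and 54.3% in wild-type libraries, with an adjusted p of 0.00474 in edgeR's quasi-likelihood test (Benjamini-Hochberg adjusted). Other positions of the same cluster had high levels in STAT2-null as well. The site at position 66490075 had 47.0% and 50.3% in STAT2-null libraries, against 63.1% and 79.2% in wild-type libraries, and was not called (adjusted p 0.211 in the same edgeR test). The site at position 66490264 had 27.0% and 28.5% in STAT2-null libraries, which lie inside the 17.6% and 33.2% of the wild-type libraries. The site at position 66490184 was called higher (adjusted p 0.00711 in the same edgeR test). It had 11.5% and 12.6% in STAT2-null libraries, against 2.93% and 3.09% in wild-type libraries. Untreated, this site had 11.3% and 11.8% in STAT2-null libraries, against 10.5% and 7.03% in wild-type libraries, and was not called.

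**Figure D4:**
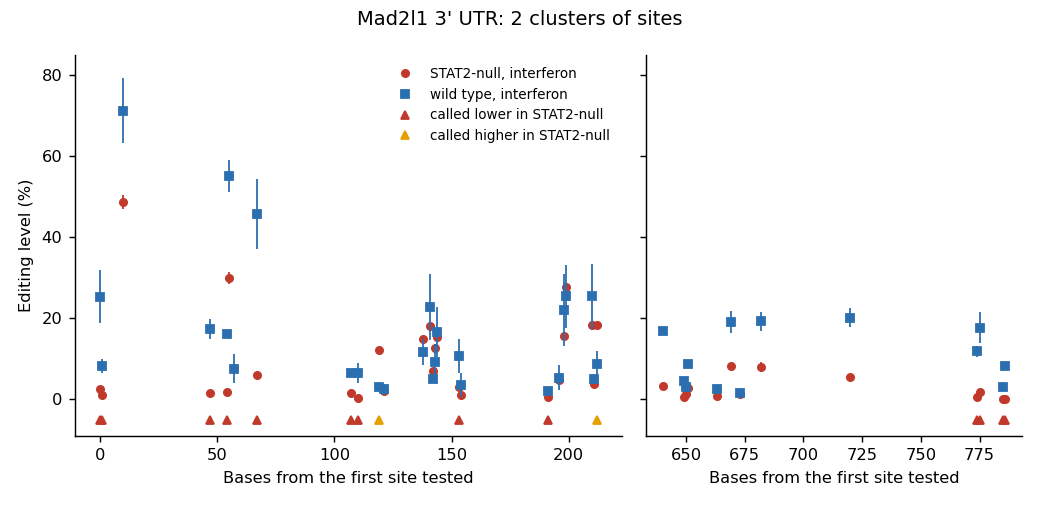
Mean editing level in percent of 2 libraries at the 39 tested sites of the Mad2l1 3′ UTR, against the distance in bases from the first of them. Interferon-treated STAT2-null is in red circles and interferon-treated wild type in blue squares. Bars run from the lower to the higher of the 2 libraries. Red triangles under the points mark the 13 sites called lower and orange triangles the 2 called higher; the sites of the first panel include several where STAT2-null stayed between 12% and 50%.

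Rpa1, the large subunit of replication protein A, held lower and uncalled sites within 121 bases, and none was higher. Of its 21 tested 3′ UTR sites, 13 were lower. Its site at chromosome 11 position 75114517 had the highest level of any tested site in both lines, with 78.7% and 77.7% in STAT2-null libraries, against 99.0% and 100% in wild-type libraries. The difference was -21.3 points (SE 0.707), with an adjusted p of 0.00314 in edgeR's quasi-likelihood test (Benjamini-Hochberg adjusted). That call was lost in a fit to the 4 libraries alone (adjusted p 0.0553 by the same test). The untreated levels at this site were 77.4% and 81.5% in STAT2-null libraries, against 93.9% and 90.8% in wild-type libraries.

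Coding sites differed one by one. Of 22 tested sites annotated as changing an amino acid, 5 were lower (22.7%) and 1 was higher (4.55%). Over all tested sites the shares were 39.8% lower and 1.15% higher. The arginine-to-glycine site of Gria3, an AMPA-type glutamate receptor subunit, lay at chromosome X position 39007429. It had 0.690% and 0% in STAT2-null libraries, against 32.1% and 36.2% in wild-type libraries (adjusted p 0.00164 in edgeR's quasi-likelihood test). The same site had 0% in both untreated STAT2-null libraries, against 32.4% and 34.2% in untreated wild-type libraries (adjusted p 0.0107 in the same edgeR test), so the difference between lines was as large without interferon. That untreated call was lost in a fit to the 4 untreated libraries alone and without untreated STAT2-null library 1, which each called 0 sites. The arginine-to-glycine site of Ccni, cyclin I, at chromosome 5 position 93618610 had 0% and 0.294% in STAT2-null libraries, against 26.7% and 34.3% in wild-type libraries. Untreated, both lines were below 1% at the Ccni site. The lysine-to-glutamate site of Cyfip2, a partner of the WAVE actin regulator, had 0% and 0.917% in STAT2-null libraries, against 7.14% and 21.7% in wild-type libraries. The serine-to-glycine site of Ncstn, a gamma-secretase subunit, had no edited read in either STAT2-null library, which allows a level of up to 0.912% over both, against 8.76% and 11.4% in wild-type libraries. The fifth was a lysine-to-arginine site of Zfp397, with no edited read in either STAT2-null library, against 2.56% and 2.41% in wild-type libraries. The calls of Cyfip2, Ncstn and Zfp397 were lost in a fit to the 4 libraries alone. All of these calls were also lost when either STAT2-null treated library was left out.

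Other coding sites were not called. The isoleucine-to-valine site of Cog3, a subunit of the conserved oligomeric Golgi complex and a known ADAR2 substrate, had 59.1% and 74.0% in STAT2-null libraries, against 86.2% and 85% in wild-type libraries (adjusted p 0.155 in edgeR's quasi-likelihood test). The tyrosine-to-cysteine site of Blcap, a long-known edited transcript, had 34.7% and 33.2% in STAT2-null libraries, against 24.7% and 27.5% in wild-type libraries (adjusted p 0.466 in the same edgeR test). Both STAT2-null libraries were above both wild-type libraries at the Blcap site and below them at the Cog3 site, without passing the test. The 3 tested Blcap sites had no call. In an intron of Flna, a filamin, the site at chromosome X position 71471989 was not called (adjusted p 0.102 in the same edgeR test). It had 5.14% and 3.66% in STAT2-null libraries, against 14.1% and 44.9% in wild-type libraries. The wild-type libraries were far apart at this Flna site, and its lack of a call depended on wild-type library 1.

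Adarb1, which encodes ADAR2, is itself edited in an intron that ADAR2 is known to target. Of its 7 tested sites, 1 was lower. That site had 0.622% and 1.09% in STAT2-null libraries, against 6.88% and 11.2% in wild-type libraries. The Adarb1 site with the highest level had 10.3% in both STAT2-null libraries, against 13.1% and 22.2% in wild-type libraries, and was not called (adjusted p 0.411 in edgeR's quasi-likelihood test).

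Some highly edited sites were not called and differed by under 10 points. The site of Trove2, now named Ro60 and encoding an RNA-binding autoantigen, at chromosome 1 position 145602508 had 73.5% and 76.7% in STAT2-null libraries, against 71.9% and 88.3% in wild-type libraries. The STAT2-null libraries lay inside the wild-type range there, although 12 of the 15 tested Trove2 sites were lower. The noncoding transcript uc012aji.1 had 31.6% and 31.4% in STAT2-null libraries at chromosome 17 position 6122636, against 33.1% and 26.7% in wild-type libraries. An intronic site of S100pbp had 27.3% and 30.0% in STAT2-null libraries, against 25.7% and 29.3% in wild-type libraries. The 3′ UTR site of 9930104L06Rik at chromosome 4 position 124621545 had 26.9% in both STAT2-null libraries, against 25.9% and 21.0% in wild-type libraries. Adjusted p over the 8 such sites that were named ran from 0.466 to 0.944 in edgeR's quasi-likelihood test, and a p above the threshold does not show equal levels.

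The 14 higher sites were few and most had low wild-type levels. The greatest increase was the annotated lysine-to-glutamate site of Ifi202b, an interferon-inducible gene of the p200 family, at chromosome 1 position 175901522. Its level was 56.8% in both STAT2-null libraries, against 0.0767% and 0.306% in wild-type libraries, a difference of 56.6 points (SE 0.123, adjusted p 4.51e-05 in edgeR's quasi-likelihood test). The untreated libraries had 61.0% and 57.4% in STAT2-null, against 0.148% and 0.610% in wild type. The 4 ADAR2_NULL libraries also lay between 55.3% and 60.5%, and the 4 ADAR1_NULL libraries between 0.0925% and 0.388%. The level was high in 2 of these lines and low in the other two, with and without interferon, and whether the reads stem from RNA editing was not tested. C330018D20Rik had 41.6% and 52.0% in STAT2-null libraries at chromosome 18 position 57116643, against 11.4% and 3.47% in wild-type libraries. Untreated, the lines overlapped at this site, with 29.3% and 40.8% in STAT2-null libraries, against 32.2% and 14.2% in wild-type libraries. An intergenic site on chromosome 13 at position 64391618 had 12.6% and 17.0% in STAT2-null libraries, against 2.06% and 0.912% in wild-type libraries, and was also called higher in untreated STAT2-null. The same intergenic run holds a lower site at position 64391666, which had 0.702% and 0.258% in STAT2-null libraries, against 59.0% and 69.6% in wild-type libraries.

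The other named increases were small. The Ifnar1 intron site at chromosome 16 position 91490832 had 3.66% and 5.73% in STAT2-null libraries, against no edited read in wild-type libraries, which allows up to 0.870% over both. In Commd2 the levels were 5.26% and 3.9% in STAT2-null libraries, against no edited read in wild-type libraries, which allows up to 0.616%. In uc009bto.2 the levels were 9.16% and 9.33% in STAT2-null libraries, against 0% and 0.377% in wild-type libraries. The Mad2l1 site among the 8 named higher sites lies at position 66490277 and is not the site at 66490184 given above. Of the 8 named higher sites, those in C330018D20Rik, Mad2l1, Ifnar1, Commd2 and Ovca2 each lost the call when either STAT2-null library was left out. Those in Ifi202b, uc009bto.2 and the intergenic run kept it under every alternative run for them. The treated wild-type libraries disagreed across uc009bto.2, however, with means of 0.121% and 19.8% over its 6 tested sites. At its position 47897595 they had 0% and 79.5%.

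Gene groups can be read against the 39.8% of all tested sites that were lower. In the cytoskeleton and adhesion list, 25 of 31 tested sites were lower, of which Iqgap1 supplied 18, and none was higher. In the metabolism list 29 of 43 sites were lower, with a median difference of -15.7 points, against -5.53 over all tested sites. The membrane and secretory list had 51 lower sites of 86, the DnaJ chaperones Dnajc1 and Dnajc18 had 21 of 40, the RNA-binding list had 36 of 74, and the DNA repair list had 36 lower and 2 higher of 84. Among known ADAR2-type substrates, 5 of 20 tested sites were lower, in Gria3 (3 sites), Cyfip2 (1) and Adarb1 (1), with a median difference of -3.9 points. The sites of a list share genes and clusters, and each list was drawn up with earlier results of these data known, so the counts are descriptions.

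By annotation, 3′ UTRs held 981 of the tested sites, with 441 lower (45%) and 11 higher. Introns held 105, with 15 lower (14.3%) and 1 higher, and intergenic runs held 71, with 19 lower (26.8%) and 1 higher. Noncoding transcripts held 28, with 3 lower, and 5′ UTRs held 3, with 1 lower. None of 7 synonymous sites was called. Median levels differed less in introns, with 1.17% in STAT2-null and 3.64% in wild type there, against 0.665% in STAT2-null and 7.51% in wild type for 3′ UTRs.

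Without interferon few of the tested sites were called between the lines. In untreated libraries 643 sites passed the same limits, and 11 were lower (1.71%) and 8 higher (1.24%) in STAT2-null, 19 in all (2.95%), with 105 at an unadjusted p below 0.05. Of the 484 sites lower after interferon, 481 had 50 reads in every untreated library. Their median level after interferon was 0.413% in STAT2-null and 15.3% in wild type, against 0.446% in STAT2-null and 0.608% in wild type without it. Only 187 of the 484 passed the limits for the untreated test, where 7 were called lower and 1 higher. The rest of the 484 were not tested untreated. The untreated calls rest on the spread shared by all 20 libraries. A fit to the 4 untreated libraries alone called 0 sites, and leaving out 1 untreated library gave 16 sites without wild-type library 1, 2 without wild-type library 2, 0 without STAT2-null library 1 and 3 without STAT2-null library 2.

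The difference between the interferon responses of the lines was tested at 1026 sites covered in all 8 libraries. By edgeR's quasi-likelihood test (Benjamini-Hochberg adjusted), the response was more negative in STAT2-null at 141 sites (13.7%) and more positive at 1 site (0.0975%), uc009bto.2. Of the 445 sites lower after interferon that could be tested, 138 were called more negative. At the lower sites the median change with interferon was 0 points in STAT2-null and 12.5 points in wild type, and both values are set in part by the choice of these sites on the treated libraries of both lines. Among the 20 named decreases, 12 were called for the difference between responses. Mmgt1 was one, since its untreated levels were 8.36% and 10.1% in STAT2-null libraries, against 15.5% and 13.7% in wild-type libraries. In place of the 142 calls, limma gave 260 and an edgeR fit to the 8 libraries of both lines alone gave 74. Leaving out 1 library gave 69 and 78 sites without STAT2-null treated libraries 1 and 2, and 91 and 70 without STAT2-null untreated libraries 1 and 2. Leaving out a wild-type library gave 102 to 141 sites.

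At the 359 lower sites with 50 reads in every library of the series, treated STAT2-null was close to untreated STAT2-null. The mean level was 1.62% ± 0.126 in treated and 1.60% ± 0.117 in untreated STAT2-null libraries, and 20.9% ± 1.27 in treated and 3.04% ± 0.00381 in untreated wild-type libraries (SD, n = 2 each). Treated P150_KO libraries averaged 0.670% and treated ADAR1_NULL libraries 0.416%, both below treated STAT2-null. Treated ADAR2_NULL libraries averaged 14.7%, against 0.847% untreated. The sites were chosen by the STAT2-null and wild-type treated libraries, so their levels in these 2 groups are a description.

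**Figure D5:**
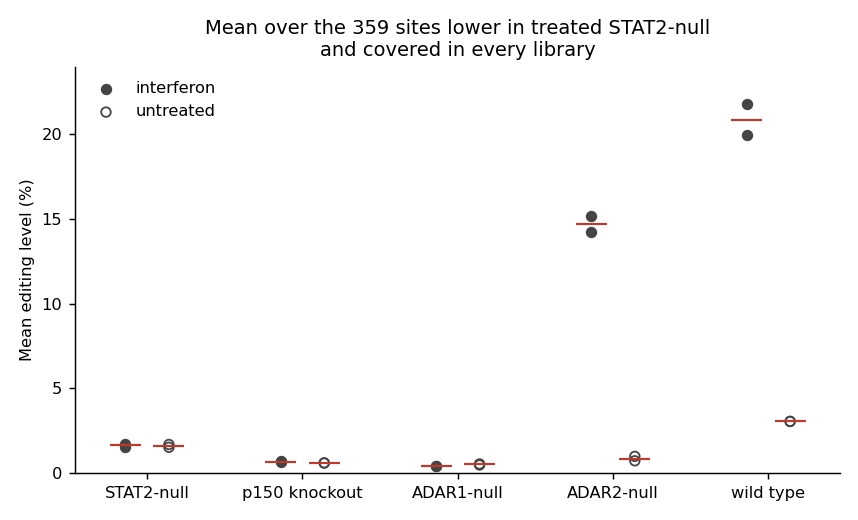
Mean editing level in percent over the 359 sites called lower in treated STAT2-null and covered in every library, 1 point per library and a line at each group mean, for 5 lines with interferon (filled) and untreated (open). STAT2-null lies near 1.6% with and without interferon, while wild type is at 20.9% with interferon and 3.04% without.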

How the data were processed

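Per the labels' design text, 557 loci were amplified by RT-PCR, and the products were pooled per sample and barcoded in 15 cycles of PCR. The submitters' processing notes name BWA, SAMtools and the build mm9; their versions and filters are stated in no source used here. Each deposited table gives coverage and edited reads per site as counts, per the file headers. The deposited editing level is a fraction equal to edited reads over coverage at 3 decimals, so levels were recomputed from the counts and given in percent. Positions are as the files give them, and whether they start at 0 or 1 is not stated. No sequence is shown, since no mm9 genome was used here.

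Sites needed 50 reads in each library compared and a mean level of 1% over them. Edited and unedited read counts were fitted with edgeR 4.0.16 (R 4.3.3; modelMatrixMeth, glmQLFit, glmQLFTest; 20 libraries, 1 coefficient per group), with Benjamini-Hochberg adjustment and a threshold of 0.05. Within each of the 10 groups, replicate libraries differed by more than sampling noise (chi-square per degree of freedom 3.45 to 21.3, the highest in treated wild type), so none was counted as a duplicate. Scripts were run on simulated data with an assumed spread between libraries, which checks the code and not the error rate in these data. Alternatives covered the coverage minimum (20 or 100 reads), the level minimum (none or 5%), a fit to the groups compared alone, limma 3.58.1 (offset 0.5 reads), a replicate block and leaving out each library.

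Called sites with non-overlapping groups gave the named sites, 1 per locus, in the 20 loci of greatest decrease and the 8 of greatest increase. The 8 uncalled loci with the highest mean level and a difference under 10 points, 3 genes per list, all amino acid-changing sites and loci of at least 8 tested sites were also named; sites within 5 kb outside genes form 1 intergenic run. Some sites under this rule are not reported here. Other sites of these genes were chosen after their values were seen. Of 189 gene names, 145 matched a RefSeq symbol, 15 matched 1 synonym and 29 are used as the files give them. An upper limit beside a count of 0 is 3 reads of the group's total. The members and lists were chosen with earlier results of these data known.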

Additional observations from a re-analysis of the deposited data

Results flagged for a closer look

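The difference between lines was compared between treatments by a test of the difference itself. It was called at 142 sites by edgeR's quasi-likelihood test (Benjamini-Hochberg adjusted). At the named sites among these, the value is the STAT2-null minus wild-type difference after interferon less the same difference without it. It was -81.3 points in 2900026A02Rik, -75.1 in Mmgt1, -70.7 in Slfn5, -69.1 in Fubp3 and -68.5 in Mlh3. It was -67.5 points in Sdf4, -65.1 in Rhoa, -62.7 in Coq3, -62.3 in Cds2 and -62.3 in Gla. It was -61.2 points at the intergenic site at position 64391666 of chromosome 13 and -58.1 in Car5b.

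The opposite sign was seen in uc009bto.2 at chromosome 6 position 47897588, where the value was 18 points (adjusted p 0.0141 in the same edgeR test). Its levels were 9.16% and 9.33% in treated STAT2-null libraries, against 0% and 0.377% in treated wild-type libraries. Untreated, they were 2.58% and 10.4% in STAT2-null, against 15.0% and 15.7% in wild type. Over the 6 tested sites of this locus the treated wild-type libraries were far apart, at means of 0.121% and 19.8%.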

How the results depend on the processing

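After interferon, the 484 lower and 14 higher sites (498 in all) moved by over 1.5 times in a fit to the 4 libraries alone (311 lower, 9 higher, 320 in all). Leaving out 1 library gave 247 to 553 lower, 3 to 20 higher and 253 to 573 sites in all; with a minimum level of 5%, 7 were higher. Untreated, 19 calls became 0 in the fit alone and 0 to 16 without 1 library. The 142 calls for the difference between responses became 74 in the fit alone, 260 by limma and 69 to 141 without 1 library. The mean difference of -11.5 points was -1.98 with no minimum level, -22.2 with a minimum of 5%, -8.78 as edited reads over all reads, -8.80 as a mean over genes and -13.8 to -10.4 without 1 library. With replicate number as a block, the counts were 502 sites after interferon, 16 untreated and 128 for the difference between responses; the numbers do not pair libraries (correlation of deviations 0.0118 treated and -0.0226 untreated, 2 pairs each). Of 37 called named sites, 25 kept the call under all alternatives run, 12 lost it under at least 1 and 0 reversed; 2 uncalled sites gained one, and the causes were not tested. Depth of 50 reads limits calls at small differences.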

Other observations

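Of the 19 sites called between the untreated lines, 3 lower sites lay in 2900026A02Rik and 2 in Gria3. The 2900026A02Rik site at chromosome 5 position 113516847 had 0% and 2.40% in treated STAT2-null libraries, against 45.6% and 66.4% in treated wild-type libraries. Untreated, it had no edited read in either STAT2-null library, against 32.5% and 48.7% in wild-type libraries. A further site of that gene, at position 113517027, had 0% and 0.562% in treated STAT2-null libraries, against 0.645% and 0.599% in treated wild-type libraries. Untreated, it had no edited read in STAT2-null libraries, against 17.7% and 26.1% in wild-type libraries.

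Some untreated calls ran the other way. In Iws1, a transcription elongation factor, the site at chromosome 18 position 32262158 was called lower after interferon, with 2.87% and 1.94% in STAT2-null libraries, against 15.4% and 22.9% in wild-type libraries. Untreated, it was called higher, with 3.10% and 1.48% in STAT2-null libraries, against no edited read in wild-type libraries. The 9930104L06Rik site at chromosome 4 position 124620529 was not called after interferon, with 9.53% and 4.83% in STAT2-null libraries, against 19.1% and 14.6% in wild-type libraries. Untreated, it was called higher, with 7.04% and 6.45% in STAT2-null libraries, against 0.320% and 0% in wild-type libraries. These sites were picked after their values were seen.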
